A study of Mus musculus with 4 samples.

Results

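Genes of cholesterol and fatty acid synthesis were examined in the mouse colonic epithelium, together with the SREBP regulators that control them. The 36 listed genes were 19 of sterol synthesis, 6 SREBP regulators and 11 of fatty acid synthesis, listed by name for their known roles, with earlier results of these data known. Of these, 35 had at least 1 probe set with that gene as its only symbol, out of 18194 genes named on the array, and the probe set whose mean over the 4 arrays was highest stood for each gene. Acat2 had no such probe set, so its expression was not analysed here.

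Expression was measured on 4 arrays in 2 pairs, with 1 array a group, from the colon of male mice. In the first pair, both groups were crypt cells of H2B-GFP mice, which carry a histone H2B fused to GFP behind a tetracycline-responsive element. These mice received doxycycline for 7 days and none for the next 2 days, and the crypt cells were sorted into label-retaining, non-proliferating cells (GFPhigh) and label-diluting, proliferating cells (GFPlow). In the second pair, both groups were isolated crypts, with no sort named, of mice with a doxycycline-inducible β-catenin, either untreated (Dox minus) or supplied with drinking water holding 2.0 mg/ml doxycycline for 5 days (Dox plus). β-catenin is the transcriptional effector of Wnt signalling, so the second pair asks what acute Wnt activation does in these crypts. Doxycycline and the induced protein cannot be told apart in it. The sources used here do not give the cell type that drives the transgenes, the strain, the age or the number of mice behind an array. Because each group was 1 array, there was no replicate check of any difference and no test, and precision is limited by the 4 arrays. Values of a gene in the 2 pairs are set side by side only, since the pairs differ in mice, in sorting and in doxycycline treatment. Dox minus is the only array from mice given no doxycycline. In RNA of mixed cells, a lower value cannot be told apart between fewer cells of a type and less RNA per cell.

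The values are log2 expression values, so a difference of 1 is 2-fold. A gene counted as measured in a pair when at least 1 of the 2 arrays read 5 or more, and lower values were set to that floor. All 8 colonocyte and all 8 goblet cell markers were measured in each pair, and no marker of smooth muscle, endothelium or red blood cells was. Of 6 myeloid markers 2 passed the floor in the GFP pair, and 3 did in the Dox pair, where C1qa read 7.97 in Dox minus against 7.94 in Dox plus and Lyz2 5.59 against 6.30. GFPlow cells had all 7 proliferation markers on the array at least 2-fold higher than GFPhigh, and all 8 colonocyte markers lower. Proliferation markers were not absent from GFPhigh, where Mki67 read 9.68, Mcm5 9.76, Top2a 8.56, Cdk1 6.67 and Plk1 5.20. Aurkb (4.10) and Mcm3 (4.98) lay under the floor in GFPhigh. In GFPlow 7 of 8 goblet markers were higher too (Spdef by 2.94 and Atoh1 by 2.64), and 5 of 6 measured enteroendocrine markers were lower (Gcg by -1.88 and Chga by -1.22). In the Dox pair 0 of the 7 proliferation markers were that much higher and 2 were that much lower, and their summed signal was nearly level, at 13.20 and 13.21. In Dox plus 6 of 8 Wnt target genes were at least 2-fold higher, among them Lgr5 by 3.84 and Ascl2 by 2.98. Other cell types differed within the Dox pair too. Of 8 goblet markers 7 were lower in Dox plus (median difference -0.36), and Clca1 differed most, by -1.54. All 7 measured enteroendocrine markers lay at least 2-fold lower in Dox plus (Insl5 by -3.66 and Tph1 by -3.14 or beyond), as were 2 genes of the pancreas acinar list, Clps (-4.69 or beyond) and Cela1 (-1.36), the mesenchymal gene Vim (-1.78) and Jchain of plasma cells (-2.53 or beyond). The summed signal of the whole list (log2 of the sum of the unlogged values) came to 13.70 in Dox minus against 11.39 in Dox plus for enteroendocrine, 12.42 and 10.87 for pancreas acinar, 8.70 and 7.29 for fibroblast, and 7.94 and 6.20 for lymphoid markers. The last 3 sums rest on few genes. In the Dox pair 2 of 9 acinar markers on the array passed the floor, 1 of 7 fibroblast markers (Vim) and 2 of 5 lymphoid markers. The other lymphoid marker, Cd8a, differed by -0.25, and Cela1 read 13.87 in GFPhigh and 14.03 in GFPlow. The part of these cell types in the differences below was not tested. For fat cells, which also make fatty acids, 0 of 6 adipocyte markers on the array were measured in the GFP pair and 2 of 6 in the Dox pair, where Lpl differed by -0.25 and Cidec by 0.60, and the defining marker Adipoq was under the floor on all 4 arrays. The summed signal of the adipocyte list came to 10.32 in Dox minus against 10.11 in Dox plus.

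Cholesterol is built from acetyl-CoA through mevalonate, which is turned into the isoprenoid units that make squalene, and squalene is closed into lanosterol and trimmed to cholesterol. Fatty acids are built from the same acetyl-CoA by acetyl-CoA carboxylase and fatty acid synthase, then lengthened and desaturated. Both routes are driven by the SREBP transcription factors, which are held in the endoplasmic reticulum by SCAP and the INSIG proteins when sterols are plentiful and released to the nucleus when sterols are scarce. Dividing cells need both products for new membrane, and the crypt base is where colon epithelial cells divide.

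Crypts with induced β-catenin had higher values for much of this programme, whereas the sorted GFPlow and GFPhigh cells differed little. In the Dox pair all 35 genes on the array were measured, 29 had higher values in Dox plus and 6 lower, and the median difference was 0.39 (1.31-fold) against 0.06 over all 9537 measured genes. Of the 35, 8 (22.9%) had values in Dox plus at least 2-fold above Dox minus, against 6.93% of all measured genes, and 0 were at least 2-fold below, against 5.35%. They were Mvd, Acaca, Idi1, Mid1ip1, Lss, Srebf2, Mvk and Fdps. By branch, the sterol genes had a median of 0.52 (1.43-fold) with 5 of 18 past 2-fold, the fatty acid genes 0.39 with 2 of 11, and the regulators 0.31 with 1 of 6. At 1.5-fold the count was 14 higher (40%) and 0 lower, against 17.4% and 11.7% of all genes. In the GFP pair 34 genes were measured, with 18 (52.9%) above and 16 below 0, against 53.2% of all 9381 measured genes above 0. The median was 0.05 against 0.04 over those 9381 genes. There 0 genes reached 2-fold in either direction, where 8.81% of all genes were that much higher in GFPlow and 4.3% lower. At 1.5-fold only Mvk and Srebf1 were higher and 0 lower, against 18.4% and 12.6% of all genes.

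**Figure D1:**
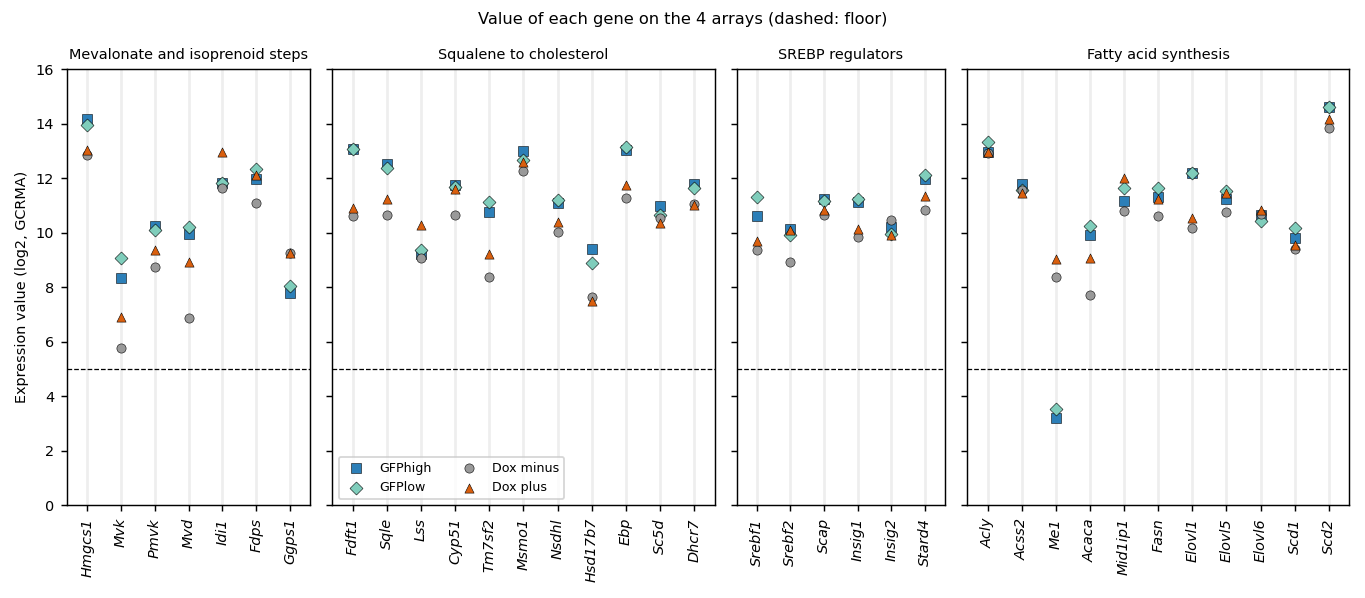
Expression value (log2, vertical axis) of each of the 35 genes on the 4 arrays, grouped by role, with 1 point for each array and the floor of 5 as a dashed line. In most genes the Dox plus triangle lies above the Dox minus circle, while the GFPhigh square and GFPlow diamond lie close together in most, with Mvk and Srebf1 the widest apart; Me1 is under the floor in the GFP pair.

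Because many of these genes are known as SREBP targets, the promoters of the list were read for known binding letters. RefSeq promoter windows (build GRCm38.p6, from 250 bases before to 50 bases after the start of a gene) were found for 30 of the 36 genes, Acat2 included, some with several windows. None was found for Fdps, Fdft1, Sqle, Scd1, Scd2 and Stard4. The letters searched, on both strands, were 3 motifs: the SREBP site TCACNCCAC, the E-box CACGTG, and CCAAT, the box bound by NF-Y, a factor that works beside SREBP. None of the 3 contains another, and in Fasn CCAAT matches on opposite strands overlap. CCAAT or its reverse complement ATTGG was present for 25 of the 30 genes, including 15 of 16 of sterol synthesis, 4 of 5 regulators and 6 of 9 of fatty acid synthesis, against 43.1% of the 7810 genes measured in the Dox pair that had a window and 41.1% of all 27025 genes. The E-box was found for 6 of 30, namely Hsd17b7, Sc5d, Dhcr7, Scap, Insig1 and Elovl5, against 12.2% of measured genes. The exact SREBP letters were found for Hmgcs1 alone, against 1.4%. Sites that depart from these letters were not searched, so a promoter without a match may still hold an SREBP site. These matches are letters only, and whether any factor was bound was not measured.

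The bases before the start of 6 genes are printed because 5 of them (Mvk, Mvd, Idi1, Lss and Srebf2) passed 2-fold in Dox plus and the other, Hmgcs1, holds the SREBP letters and hardly differed. They run 5′ to 3′ on the strand of the gene and end 1 base before its start, with motif matches in capitals. Positions in GRCm38.p6 are chr13:119690101-119690350, plus strand for Hmgcs1; chr5:114444079-114444268, plus strand for Mvk; chr8:122443423-122443542, minus strand for Mvd; chr13:8885486-8885605, plus strand for Idi1; chr10:76531485-76531604, plus strand for Lss; and chr15:82147079-82147268, plus strand for Srebf2.
Hmgcs1: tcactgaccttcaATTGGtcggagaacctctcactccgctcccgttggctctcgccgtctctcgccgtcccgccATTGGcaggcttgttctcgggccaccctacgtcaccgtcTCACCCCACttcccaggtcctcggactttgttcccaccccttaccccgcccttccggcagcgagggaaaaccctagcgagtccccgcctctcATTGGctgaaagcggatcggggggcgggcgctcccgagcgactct
Mvk: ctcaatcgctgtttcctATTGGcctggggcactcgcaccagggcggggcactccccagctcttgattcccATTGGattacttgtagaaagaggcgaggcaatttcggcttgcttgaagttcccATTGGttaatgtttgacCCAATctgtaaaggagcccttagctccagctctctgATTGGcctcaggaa
Mvd: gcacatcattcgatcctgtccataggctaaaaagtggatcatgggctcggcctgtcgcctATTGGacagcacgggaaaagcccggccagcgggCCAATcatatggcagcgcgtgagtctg
Idi1: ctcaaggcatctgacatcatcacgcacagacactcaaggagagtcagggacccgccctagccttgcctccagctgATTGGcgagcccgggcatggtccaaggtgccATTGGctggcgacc
Lss: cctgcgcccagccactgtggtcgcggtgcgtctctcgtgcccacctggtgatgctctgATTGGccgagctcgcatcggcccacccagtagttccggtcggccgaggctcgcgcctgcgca
Srebf2: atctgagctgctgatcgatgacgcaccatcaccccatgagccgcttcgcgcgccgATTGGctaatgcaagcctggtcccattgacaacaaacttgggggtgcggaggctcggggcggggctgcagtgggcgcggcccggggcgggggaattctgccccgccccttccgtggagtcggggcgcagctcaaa
In Hmgcs1 the SREBP match is TCACCCCAC, which starts 137 bases before the start of the gene, between CCAAT boxes in the reverse direction. Mvk holds 5 CCAAT boxes on either strand, the first of them 173 bases before the start, and Mvd and Idi1 hold 2 each. Lss and Srebf2 each hold 1, at 62 and 135 bases before the start. Of the other genes that passed 2-fold in Dox plus, Acaca and Mid1ip1 had a window without any of these letters, and Fdps had no window to read. CCAAT was thus present both in genes with large differences and in genes such as Hmgcs1, Dhcr7 and Sc5d with small ones.

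The first part of the sterol route, from acetyl-CoA units to isoprenoids, held the largest differences after doxycycline. Its 7 measured genes had a median of 1.03 (2.04-fold) in the Dox pair and 0.26 in the GFP pair, and 4 of the 7 passed 2-fold upward in Dox plus. Mvd, which removes carbon dioxide to give the first isoprenoid unit, read 6.87 in Dox minus and 8.94 in Dox plus, against 9.94 in GFPhigh and 10.20 in GFPlow. Dox minus thus stood well below the other 3 arrays, and the difference of 2.08 (4.21-fold) exceeded that of 99.2% of measured genes. Its second probe set, under the floor in Dox minus, gave at least 2.45. Idi1, the isomerase that interconverts the isoprenoid units, read 11.66 in Dox minus and 12.96 in Dox plus, a difference of 1.30 (2.46-fold), or 0.94 in its second probe set. Its GFP arrays read 11.84 and 11.83, so Dox plus was the highest of the 4. Mvk, the mevalonate kinase whose promoter held the 5 boxes above, read 5.79 in Dox minus and 6.93 in Dox plus, a difference of 1.14 (2.21-fold). It was 1.02 in the second probe set, and 0.93, under 2-fold, with a floor of 6. In the GFP pair Mvk read 8.34 in GFPhigh and 9.07 in GFPlow, which at 0.73 was the largest difference of any of the 34 genes there, while its second probe set gave 0.30.

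The other measured enzymes of this first part differed less. Fdps joins isoprenoid units into farnesyl diphosphate, the last intermediate shared by sterols and prenylated proteins, and read 11.09 in Dox minus and 12.12 in Dox plus. Its difference of 1.03 (2.04-fold) stood at the threshold and was 0.97 after a loess correction; in the GFP pair it was 0.35, from 11.99 in GFPhigh to 12.34 in GFPlow. Pmvk, the kinase that follows Mvk, differed by 0.62 in the Dox pair and by -0.14 in the GFP pair. Ggps1, which leads away from sterols to geranylgeranyl diphosphate for protein prenylation, read 9.28 in Dox minus and 9.25 in Dox plus, so that it was level where Fdps was not. One of its 3 other probe sets gave 0.78. Hmgcs1, which makes HMG-CoA at the entry of the route, read 12.87 in Dox minus and 13.03 in Dox plus, a difference of 0.15, with 3 further measured probe sets between -0.04 and 0.18. In the GFP pair it read 14.18 in GFPhigh and 13.96 in GFPlow, and all 5 of its probe sets were lower in GFPlow, by -0.22 to -0.56. The promoter with the exact SREBP letters was therefore that of a gene whose difference in the Dox pair exceeded that of only 57.4% of all measured genes.

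**Figure D2:**
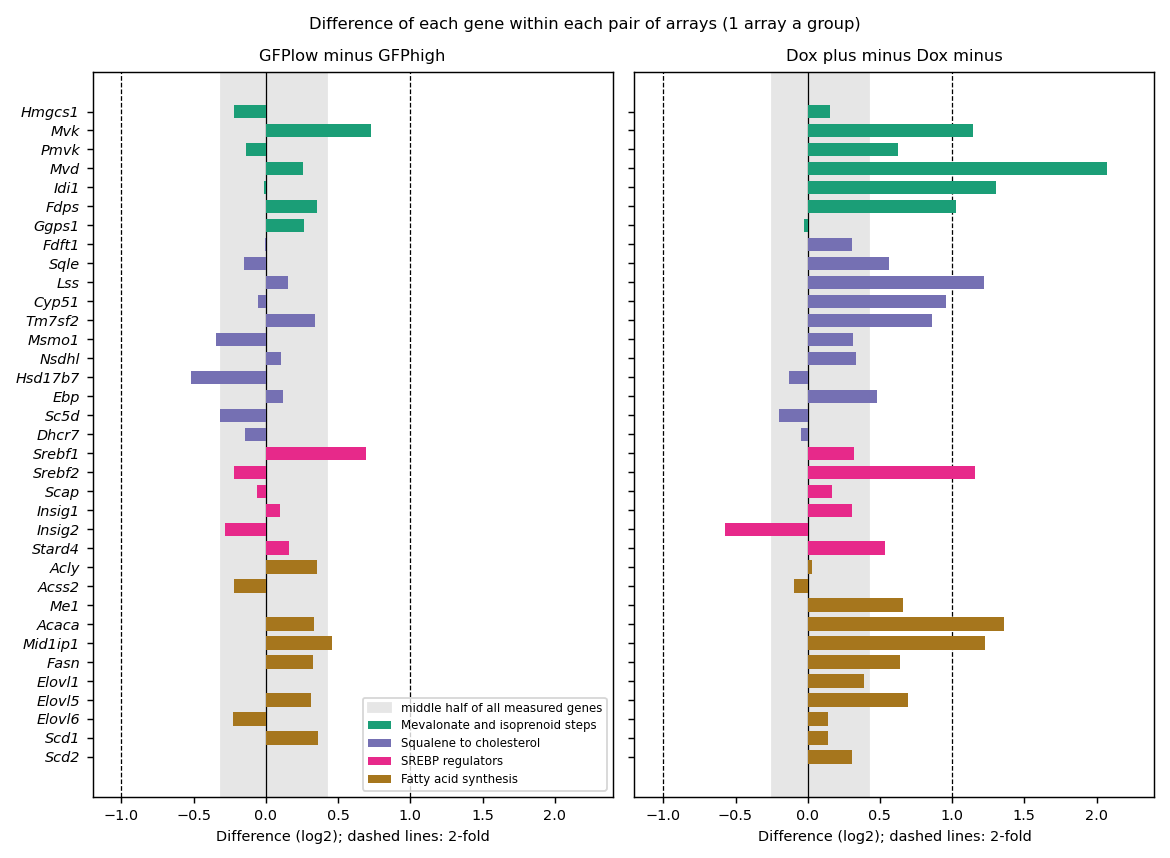
Difference within each pair (log2, horizontal axis) for each of the 35 genes in pathway order, GFPlow minus GFPhigh on the left and Dox plus minus Dox minus on the right, with the interquartile range of all measured genes shaded and 2-fold marked by dashed lines. No bar reaches 2-fold on the left (Me1 was not measured there), and 8 pass it on the right, 4 of them among the mevalonate and isoprenoid steps.

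From squalene to cholesterol the differences were smaller and uneven. The 11 genes had a median of 0.33 in the Dox pair and -0.05 in the GFP pair, with 1 at least 2-fold higher in Dox plus. Lss, the cyclase that makes lanosterol, read 9.08 in Dox minus and 10.30 in Dox plus, against 9.23 in GFPhigh and 9.38 in GFPlow. Dox plus was the highest array, and the difference was 1.22 (2.33-fold), or 2.21 in a second probe set that read 6.04 and 8.25. Cyp51, which removes the first methyl group of lanosterol, read 10.67 in Dox minus and 11.62 in Dox plus. Its difference of 0.96 was just under 2-fold and its second probe set, at 1.15, just over. Tm7sf2, a reductase of the next step, differed by 0.86 in the Dox pair (8.37 and 9.23) and by 0.34 in the GFP pair (10.78 and 11.12). Sqle, the squalene epoxidase and a control point of the route, read 10.67 in Dox minus and 11.23 in Dox plus, a difference of 0.56, against 12.53 in GFPhigh and 12.38 in GFPlow.

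The remaining enzymes of this stretch differed less in the Dox pair than Sqle did, by their strongest probe sets. Fdft1, which makes squalene and so commits the route to sterols, differed by 0.31, Msmo1 and Nsdhl, which remove methyl groups, by 0.31 and 0.33, and the isomerase Ebp by 0.48, all higher in Dox plus. The last steps were not higher: Sc5d read 10.55 in Dox minus and 10.36 in Dox plus (-0.20, or -0.43 in its second measured probe set), and Dhcr7, the final reductase, read 11.06 and 11.02 (-0.05). The end of the route thus lay apart from Lss and Cyp51 in its middle. Hsd17b7, a ketoreductase of the demethylation steps, was unsettled, at -0.13 in its strongest probe set (7.64 and 7.51), at 0.95 in another (5.63 and 6.58), and at 0.29 or beyond in a further one. Hsd17b7 also had the lowest difference of the 34 genes in the GFP pair, at -0.52 (9.43 in GFPhigh and 8.91 in GFPlow), although its 2 other measured probe sets gave -0.13 and -0.17. Msmo1 (-0.34) and Sc5d (-0.31) were the next lowest there.

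**Figure D3:**
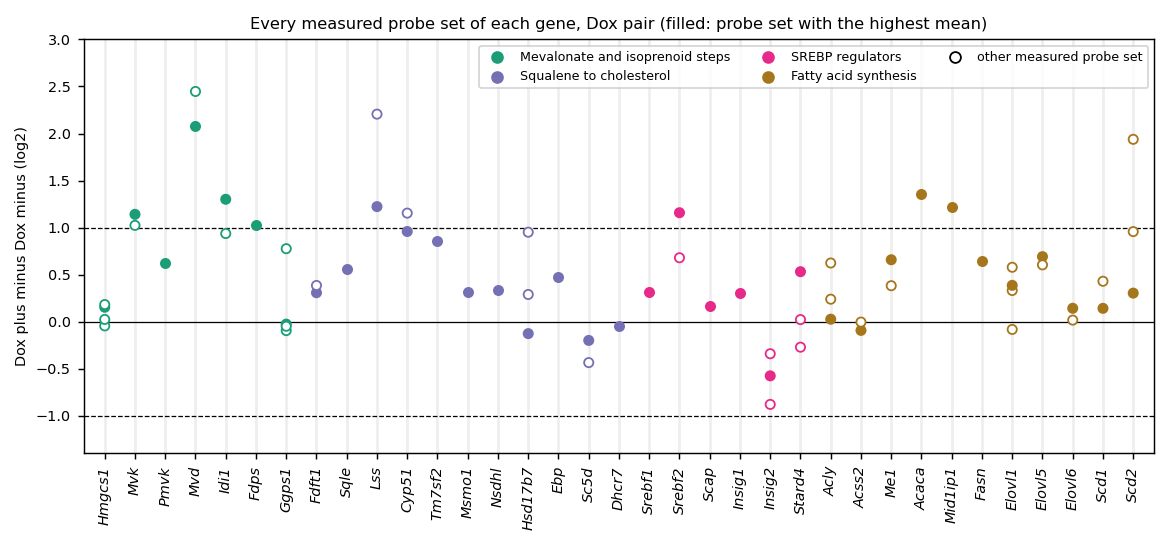
Dox plus minus Dox minus (log2, vertical axis) for every measured probe set of each gene, with the probe set of highest mean filled, the others open, and 2-fold as dashed lines. Points of Mvd and Mvk all lie above 2-fold, and those of Lss too, whereas Hsd17b7, Stard4 and Scd2 spread widely between probe sets.

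Counting every probe set gave the same picture. Of 67 measured probe sets of these genes in the Dox pair 52 (77.6%) were higher in Dox plus, against 56.6% of 16005 measured probe sets with 1 symbol, and 13 were past 2-fold upward and 0 downward, against 7.88% and 5.07% of all of them. All measured probe sets of a gene had the same sign for 16 of the 21 genes with several, against 60.8% of 4064 such genes. Across all genes with several measured probe sets the median SD between them was 0.28 in each pair and the pooled SD 0.45, neither of which holds the spread between mice. The Dox pair differences of many of the 35 genes lay below the pooled SD, among them Fdft1, Msmo1, Nsdhl and Scap, at 0.17 to 0.33. Their median of 0.39 lay below it too. Probe sets of 1 gene share its transcripts and are no replicates.

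Among the regulators, the gene of the sterol-directed factor SREBP-2 differed most after doxycycline and the gene of SREBP-1 most in the sorted cells. The 6 genes had a median of 0.31 in the Dox pair and 0.02 in the GFP pair. Srebf2, which encodes SREBP-2, read 8.94 in Dox minus and 10.09 in Dox plus, against 10.14 in GFPhigh and 9.91 in GFPlow. Dox minus was the lowest array, and the difference was 1.16 (2.23-fold), or 0.68 in the second probe set and 0.92 as the mean of both. Srebf1, which encodes the SREBP-1 forms that drive fatty acid genes, read 10.63 in GFPhigh and 11.32 in GFPlow, a difference of 0.69 (1.62-fold), and 9.38 and 9.70 in the Dox pair (0.32). Srebf2 differed by -0.22 in the GFP pair, or by 0.37 in its second probe set. Scap, the escort that carries the factors to their activating proteases, differed by 0.17 in the Dox pair and by -0.06 in the GFP pair.

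The genes of the 2 retention proteins had differences of opposite sign in the Dox pair, though that of Insig1 was small. Insig1, itself an SREBP target, read 9.83 in Dox minus and 10.14 in Dox plus (0.31). It had 1 probe set, and its difference lay below the pooled SD of 0.45 between probe sets. Insig2, which retains the factors in the same way but is not under SREBP control, read 10.48 in Dox minus and 9.91 in Dox plus (-0.58, 1.49-fold), the lowest difference of the 35 genes. It read 10.23 in GFPhigh and 9.94 in GFPlow. All 3 of its probe sets were lower in Dox plus, by -0.34 to -0.88, and lower in GFPlow, by -0.28 to -1.12. Stard4, a carrier of cholesterol between membranes, differed by 0.53 in the Dox pair (10.83 and 11.36), but its 2 other probe sets gave 0.02 and -0.27.

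In fatty acid synthesis, the carboxylation step differed most after doxycycline by the strongest probe set of each gene. This rested on 1 measured probe set each for Acaca and Mid1ip1, while a weaker probe set of Scd2 gave 1.94. The 11 genes had a median of 0.39 in the Dox pair, with 10 higher in Dox plus, 2 of them past 2-fold, and the 10 measured in the GFP pair had a median of 0.32. Acaca, acetyl-CoA carboxylase and the committed step of the route, read 7.72 in Dox minus and 9.08 in Dox plus, against 9.92 in GFPhigh and 10.25 in GFPlow. Its difference of 1.36 (2.56-fold) was the largest of the group, and Dox minus was again the lowest array. Mid1ip1, a protein that helps acetyl-CoA carboxylase to polymerise into its active form, read 10.80 in Dox minus and 12.03 in Dox plus, a difference of 1.22 (2.34-fold), and 11.18 in GFPhigh and 11.64 in GFPlow (0.46). Fasn, the fatty acid synthase, differed by 0.64 in the Dox pair (10.61 and 11.25) and by 0.33 in the GFP pair (11.31 and 11.64).

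The enzymes that feed the carboxylase were nearly level in the Dox pair by their strongest probe sets, though not by every probe set of Acly. Acly, which splits citrate into acetyl-CoA, read 12.94 in Dox minus and 12.97 in Dox plus (0.03), with 2 other measured probe sets at 0.24 and 0.62. In the GFP pair it read 12.98 in GFPhigh and 13.34 in GFPlow (0.35), and all 3 of its measured probe sets were higher in GFPlow. Acss2, which makes acetyl-CoA from acetate, differed by -0.09 in the Dox pair and by -0.22 in the GFP pair, where its second probe set gave 0.25. Me1, a source of NADPH for the synthase, read 8.38 in Dox minus and 9.04 in Dox plus (0.66), but 3.20 and 3.53 in the GFP pair, where it was not measured. It was the only gene of the 35 with that split between the pairs.

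The enzymes that lengthen and desaturate fatty acids followed no single direction across both pairs. Elovl5, which lengthens polyunsaturated chains, differed by 0.69 in the Dox pair (10.78 and 11.47) and by 0.31 in the GFP pair. Elovl1, for very long chains, differed by 0.39 and by 0.00, and Elovl6, for saturated chains, by 0.14 and -0.22. Scd1, a stearoyl-CoA desaturase, read 9.41 in Dox minus and 9.56 in Dox plus (0.14), against 9.82 in GFPhigh and 10.18 in GFPlow (0.36). Scd2, the related desaturase, read 13.86 in Dox minus and 14.16 in Dox plus (0.30) by its strongest probe set. Its other probe sets gave 0.96 and 1.94, so its mean of 1.07 passed 2-fold. The weakest of these also gave 1.49 in the GFP pair (5.55 and 7.03), where the strongest gave 0.00.

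The order of the sterol and fatty acid branches was opposite in the main values of the pairs. In the GFP pair 7 of 10 fatty acid genes and 8 of 18 sterol genes were higher in GFPlow, against 53.2% of all measured genes. The sterol median minus the fatty acid median was -0.33 there. In the Dox pair it was 0.13, and it became -0.0019 when the probe sets of a gene were averaged. It was 0.37 without _x_at, _s_at and _a_at probe sets, which left 16 sterol and 10 fatty acid genes. Its size thus depended on the choice of probe sets and of genes. In the GFP pair these choices gave -0.46 and -0.34, the latter over 17 sterol and 9 fatty acid genes. Of the 34 genes measured in both pairs 17 were higher in GFPlow and in Dox plus, 11 were lower in GFPlow and higher in Dox plus, 5 were lower in both, and 1, Ggps1, was higher in GFPlow and lower in Dox plus. The absolute difference was larger in the Dox pair for 23 of the 34, against 47.7% of 9023 genes measured in both. Over these 34 genes the differences of the 2 pairs, which share no array, correlated with Pearson r = 0.45, against 0.29 over those 9023 genes; genes are not independent replicates.

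**Figure D4:**
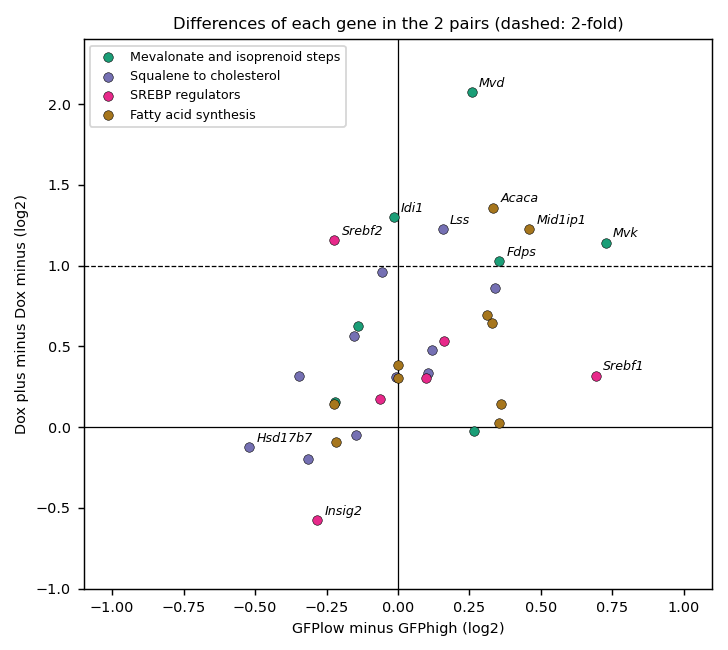
Difference in the Dox pair (log2, vertical axis) against the difference in the GFP pair (log2, horizontal axis) for the 34 genes measured in both, coloured by role, with 2-fold as a dashed line. The 8 genes above the line spread from -0.22 to 0.73 on the horizontal axis, and Insig2 is lowest at the bottom left.

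Other genes of lipid handling were read from a list chosen by name. Of 29 genes of sterol transport, SREBP processing and prenylation, 20 were measured in the GFP pair, where 1 was past 2-fold upward in GFPlow and 1 downward, and 19 in the Dox pair, where 2 were past it upward in Dox plus and 0 downward. Over all measured genes these shares were 8.81% and 4.3% (GFP pair) or 6.93% and 5.35% (Dox pair), so counts this small were near the background. The medians of the list were 0.06 and -0.01. Scarb1, the receptor that takes cholesterol from high-density lipoprotein, was higher in both pairs, at 6.02 in GFPhigh and 7.96 in GFPlow (1.94) and at 7.74 in Dox minus and 9.56 in Dox plus (1.81). Mylip, which marks lipoprotein receptors for degradation, differed by 1.45 in the Dox pair (7.14 and 8.59) and by 0.79 in the GFP pair. Abcg5, a subunit of a sterol efflux pump, was lower in GFPlow by -2.40 (10.20 in GFPhigh and 7.80 in GFPlow) and under the floor in the Dox pair, and its partner Abcg8 was under the floor on all 4 arrays. Erlin1, which helps to degrade sterol-regulated proteins in the endoplasmic reticulum, was lower in Dox plus by -0.99, just inside 2-fold, and was named after its value was seen.

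Of 32 genes of fatty acid elongation, activation and glycerolipid assembly, 24 were measured in the GFP pair, where 2 were past 2-fold upward in GFPlow and 1 downward, and 25 in the Dox pair, where 2 were past it upward in Dox plus and 0 downward. These counts too were near the shares of all genes given above, and the medians were -0.02 and 0.18. In the Dox pair Idh1, a cytosolic source of NADPH, was higher by 1.14 (12.77 and 13.91), and Dgat2, which makes triglyceride, by 1.07 (8.68 and 9.75). In the GFP pair Gpam, which starts glycerolipid assembly, was higher in GFPlow by 1.17 (8.79 and 9.96), and Mlxipl, the carbohydrate-responsive partner of SREBP-1 in lipogenic genes, by 1.07 (8.46 and 9.54). Lpin3, a phosphatidate phosphatase, was lower there by -1.23 (8.29 and 7.06). None of these 5 genes was at least 2-fold apart in the other pair.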

How the data were processed

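RNA of 4 groups, 1 array each, had been labelled as biotin cRNA, per the labels. The authors deposited 1 log2 value per probe set for 45101 probe sets, and the submitters' processing notes name GCRMA; the sources used here give neither a version nor the arrays it was run on together. GCRMA subtracts a modelled background, so low values carry little information. The log2 scale was read from the values (0.47 to 16.27). GFPhigh, GFPlow, Dox minus and Dox plus had 17412, 17462, 16945 and 16982 probe sets at or above 5.

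With Python 3.11.15 and pandas 2.3.3, probe sets with 1 symbol (34958) were kept, the one with the highest mean per gene chosen, values floored at 5, and differences taken within pairs only. The code was tested on simulated data. Named are all genes on the list, related genes at least 2-fold apart, and the markers with the largest differences. Genes and lists were chosen with earlier results of these data known. Alternatives were floors of 4 and 6, no floor, quantile and loess (span 0.4, statsmodels 0.14.6) scaling, the mean of probe sets, leaving out _x_at, _s_at and _a_at probe sets, and a 1.5-fold threshold.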

Additional observations from a re-analysis of the deposited data

How the results depend on the processing

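With 1 array a group, values were compared with the median SD between probe sets of a gene (0.28), divided by the square root of the number of genes for medians. The pooled SD was larger, at 0.45. Of 476 values of single genes under alternatives, 459 moved by less or not at all and 17 by more, and 0 of at least 2-fold changed sign. Many of them could not move. Among measured values of the strongest probe sets only Mvk in Dox minus (5.79) read under 6, so the alternative floors left the others unchanged. The mean of probe sets could not move the 10 genes with 1 probe set. These limits apply to the group values below as well. Of 198 group values, 181 kept within that range or, for counts, within 1.5 times. With the mean of probe sets, the sterol median in the GFP pair became -0.11, the median of all the genes there 0.10, the sterol minus fatty acid gap -0.46 (GFP pair) and -0.0019 (Dox pair), the fatty acid median in the Dox pair 0.52, and the regulators at least 2-fold higher in Dox plus 0. Without _x_at, _s_at and _a_at probe sets, the median of all the genes was 0.096 (GFP pair) and 0.48 (Dox pair), the sterol median in the Dox pair 0.71 and the gap there 0.37. That choice also dropped genes, leaving 31 in all in each pair and 16 of sterol synthesis in the Dox pair. Loess made the median of all the genes in the Dox pair 0.33. At 1.5-fold the numbers higher in GFPlow were 1 of sterol synthesis, 1 of the regulators and 2 in all, and those higher in Dox plus 8 of sterol synthesis, 5 of fatty acid synthesis and 14 in all. The number at least 2-fold higher in Dox plus was 7 to 9 under the other alternatives. No scaling moved the median of all measured genes by over 0.1. No paired analysis was possible because each group was 1 array. Signal limits Me1 in the GFP pair and the second probe set of Mvd in Dox minus, which lay under the floor.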

Other observations

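The 4 arrays can be set side by side for these genes only as values, because the pairs differ in mice, in sorting and in doxycycline treatment. Of the 34 genes at or above the floor on every array, 27 had their lowest value in Dox minus, 5 in Dox plus and 2 in the GFP pair, whereas Dox minus was lowest for 31.8% of 8578 such genes. In 25 of the 34 both GFP arrays read higher than both Dox arrays, against 40.9% of all such genes. Fdft1 was an example, at 13.09 in both GFP arrays, 10.62 in Dox minus and 10.92 in Dox plus, as was Elovl1, at 12.18 in both GFP arrays, 10.17 and 10.55. Ggps1 lay the other way, at 7.78 in GFPhigh and 8.05 in GFPlow against 9.28 in Dox minus and 9.25 in Dox plus. Both GFP groups and Dox plus came from mice given doxycycline, and Dox minus alone did not. Mice, sorting and doxycycline cannot be told apart here.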
